A study of Homo sapiens with 6 samples.

Results

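The genes described here encode the core of the spliceosome and the 2 large families of RNA-binding proteins that steer it, the SR proteins and the heterogeneous nuclear ribonucleoproteins (hnRNPs). They were taken from a table of 17202 genes by symbol: protein-coding genes whose names start with SNRP, SNRNP, HNRNP, SRSF, SF3A, SF3B or PRPF, or with LSM and a digit, plus U2AF1, U2AF2 and SF1, with a mean of at least 10 normalized counts over the 6 libraries. The rule gave 90 genes among the 13465 that reached that mean. It left out 49 pseudogenes, 1 of them named as a pseudogene but annotated as protein-coding (HNRNPA1P48). One SR gene, SRSF12, fell below the minimum with a mean of 8.16. The lowest members above it were PRPF40B, with 107 ± 20.4 (SD, n = 3) in DMSO and 151 ± 57.3 (SD, n = 3) with MB1-47, and SNRNP35, with 117 ± 29.7 and 140 ± 14.8.

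RNA came from DND41, an established human cell line of T-cell acute lymphoblastic leukaemia. The series title describes MB1-47 as a mitochondrial uncoupler, a compound that lets protons back across the inner membrane without ATP being made. The MB1-47 group held 3 libraries of DND41 cells kept for 24 h in RPMI medium with 10% FBS and MB1-47 at 4 mM, as the labels write the dose, and the control group held 3 libraries of the same cells kept for 24 h in the same medium with the solvent DMSO. How separate the cultures behind the 3 libraries of a group were is not given beyond their plating in triplicates. The p-values therefore measure only how these libraries vary, and part of that may be technical. All values come from 1 cell line and 1 time.

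Most genes of higher organisms are transcribed with introns, which the spliceosome removes. Its building blocks are small nuclear ribonucleoproteins (snRNPs): in U1, U2, U4 and U5, a ring of Sm proteins sits on a small RNA, U6 carries a related ring of LSm proteins, and each particle adds proteins of its own. SR proteins mostly bind exons and recruit the splicing machinery, while hnRNPs coat the nascent transcript and often block or redirect splice sites. Several of these families, SR proteins above all, are known to limit their own levels through transcripts that carry a premature stop codon.

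Values are the authors' normalized counts, which are scaled between libraries and are not divided by transcript length, so they are compared within a gene and not between genes. No spike-in is named in the labels, so a change is relative to the other transcripts of the same library. In such bulk samples a lower level of a transcript per cell and fewer cells that hold it cannot be told apart. Totals of normalized counts ran from 28323700 to 32667500 per library. The values are not whole numbers, and only 62.6% to 67.1% of a library's low values came within 0.1 of a multiple of 1 shared unit, so read counts could not be rebuilt and the depth behind each value is unknown. Correlations of log2 values ran from 0.955 to 0.968 between libraries of a group and from 0.927 to 0.948 across groups. Of 10 T-lineage markers 9 had a row and a mean of at least 10, with sums of 50834 to 53601 in DMSO and 27366 to 32029 with MB1-47. Of these 9, CD7, CD3D, LCK, CD3G and NOTCH1 were lower (-2.02, -1.24, -1.17, -0.96 and -0.89 on the log2 scale), DNTT was higher (1.35), and CD3E (-0.17), TLX3 (0.48) and CD5 (2.11, at means of 9.31 and 17.8) did not pass. Of 11 markers of other cell types 5 had a row and 2 a mean of at least 10. Their sums were 1030 to 1532 in DMSO and 539 to 630 with MB1-47, nearly all from PECAM1. The monocyte and liver genes CD14, LYZ and ALB had rows with means below the minimum of 10. Whether these marker differences have a part in the results below was not tested.

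After MB1-47, 60 of the 90 genes were lower and 4 were higher at an adjusted p under 0.05 (limma's moderated test on log2(value + 1), adjusted by the Benjamini-Hochberg method over all 13465 genes). Among all genes tested, 19.8% were lower and 18.3% higher, 38.1% in all. The median log2 change of the 90 genes was -0.50, beside 0.02 for all genes tested. At least 2-fold lower and past the threshold were 20 of the 90, beside 5.99% of all genes. In 64 of the 90 genes every MB1-47 library was below every DMSO library, against 25.2% of all genes, and in 7 every MB1-47 library was above, against 24.1%. Summed over the 90 genes, normalized counts made up 2.74%, 2.73% and 2.79% of the library total in DMSO and 2.07%, 2.14% and 2.06% with MB1-47, a mean of 2.75% ± 0.0315 (SD, n = 3) and 2.09% ± 0.0476 (SD, n = 3). The 4 higher genes were HNRNPLL, LSM8, LSM14A and HNRNPUL2-BSCL2, a read-through transcript.

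The classes differed in how far they fell. The median log2 change was -1.23 over the 8 Sm core genes, -0.45 over 13 LSm genes, -0.57 over 25 genes of snRNP-specific proteins, -0.28 over 8 other PRPF genes, -0.36 over the 3 genes of branch point and 3' splice site recognition, -0.36 over 11 SR genes and -0.65 over 21 hnRNP genes. The interquartile range of the changes was 0.12 in the Sm core and between 0.38 and 0.97 in the other 6 classes. Single genes ran from -1.34 to 0.23 among SR, from -1.20 to 0.46 among LSm and from -1.43 to 0.74 among hnRNP genes. Averaged over a class, the log2 difference of the 3 MB1-47 libraries from the DMSO mean was -1.20, -1.09 and -1.01 for the Sm genes, -0.52, -0.51 and -0.48 for the hnRNP genes and -0.41, -0.47 and -0.45 for the SR genes. Among these 3 classes, each of the 3 MB1-47 libraries gave the order Sm, hnRNP, SR, with hnRNP and SR genes close together. The genes of snRNP-specific proteins lay at -0.60, -0.50 and -0.52, below the hnRNP genes in libraries 1 and 3 and just above them in library 2. Their average was -0.54 beside -0.50 for the hnRNP genes, so averages and medians rank these 2 classes differently. Differences between classes are described here and carry no test.

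**Figure D1:**
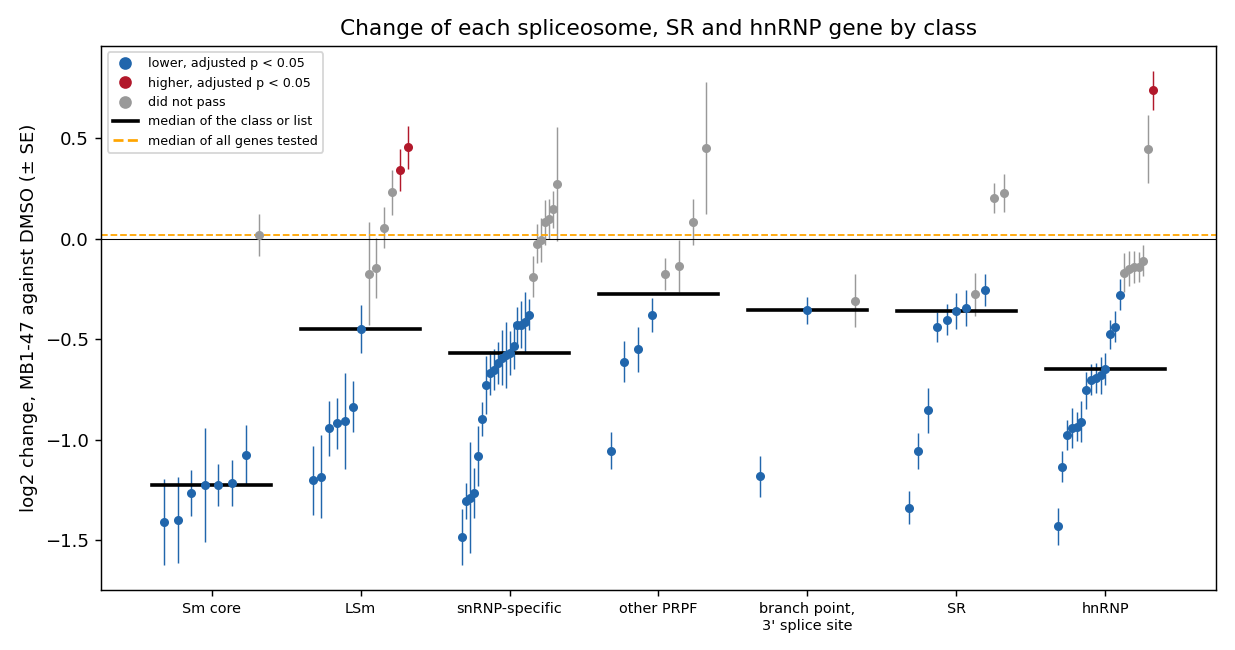
Each point is the log2 change of 1 gene, MB1-47 against DMSO (3 libraries each), with its standard error from limma; columns are the classes, black bars the class medians and the dashed line the median of all 13465 genes tested. The 7 lower Sm core genes sit between -1.41 and -1.08, and the class medians of the others lie between -0.65 and -0.28.

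All 7 Sm proteins that form the ring shared by U1, U2, U4 and U5 had lower transcripts after MB1-47. Their changes spanned only -1.41 to -1.08 on the log2 scale, so each was more than 2-fold lower. SNRPB, which encodes SmB and its splice form SmB' (chr20:2461634-2470853, minus strand, GENCODE 29 on GRCh38), measured 5172, 4637 and 4984 normalized counts in the DMSO libraries and 2078, 2388 and 1880 in the MB1-47 libraries. No MB1-47 library came near the lowest DMSO library, and the change was -1.23 ± 0.11 (SE; limma adjusted p = 8.0e-06). SNRPD1, the gene of SmD1 (chr18:21612267-21633524, plus strand), measured 2909, 2072 and 3052 in DMSO and 706, 1290 and 1075 with MB1-47. This was the largest fall of the class, -1.41 ± 0.21 (SE; limma adjusted p = 0.00037), with a wider spread in both groups than SNRPB. SNRPE, the gene of SmE, measured 2287, 2135 and 2375 in DMSO and 1012, 971 and 847 with MB1-47, a change of -1.27. SNRPF, the gene of SmF, measured 547, 461 and 604 against 159, 206 and 248, a change of -1.40. The groups did not overlap in either gene. SNRPD2 and SNRPD3, which encode SmD2 and SmD3, changed by -1.08 and -1.22.

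SNRPG, the gene of SmG, was the least even Sm gene across libraries. It measured 8187, 4440 and 5071 in DMSO and 3201, 1479 and 3023 with MB1-47. DMSO replicate 1 stood well above the other two, the second MB1-47 library stood well below its group, and the groups still did not overlap. The change was -1.23 ± 0.28 (SE; limma adjusted p = 0.0055, and 0.065 when limma was run without its intensity trend).

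The eighth Sm gene, SNRPN, encodes SmN, a close relative of SmB that is imprinted and best known from brain and from Prader-Willi syndrome. It measured 3542, 3005 and 3606 in DMSO and 3130, 3554 and 3583 with MB1-47. The groups overlapped, with means of 3384 ± 330 (SD, n = 3) and 3422 ± 254 (SD, n = 3), and the change of 0.02 ± 0.10 (SE) did not pass (limma adjusted p = 0.91). SNURF, which shares transcripts with SNRPN, gave the same picture when the pair was summed, at 4200 ± 407 in DMSO and 4194 ± 144 with MB1-47 (SD, n = 3 each). Estimates for SNRPB and SNRPN rest on the tool's assignment of reads between similar sequences.

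Promoter sequences were looked at because members of the Sm ring fell together. The 300-base promoter windows of NCBI RefSeq (GRCh38.p14, 250 bases before to 50 after the annotated start) held 78 of the 90 genes. An ETS-type motif, CCGGAAG or its reverse complement CTTCCGG, lay in the windows of 4 of 7 Sm genes (57.1%) and 12 of 22 genes of snRNP-specific proteins (54.5%), beside 32.1% of the 78 members, 19.9% of 9774 tested genes and 10.7% of all 27305 windows. It lay in 17 of 52 members that were lower (32.7%) and 8 of 26 that were not (30.8%). Over the tested genes it lay in 23.7% of 2081 lower, 19.3% of 1896 higher and 18.8% of 5797 that did not pass. Whether the falls have to do with this motif was not tested. The stretches below show it in 3 Sm genes, the U2 gene SNRPA1 and U2AF2, all lower after MB1-47, and in SF3A1, which did not pass. Each is 30 bases of the gene's own strand, 5′ to 3′, with the motif in capitals.
SNRPB: agtgagctggaCCGGAAGtaggtttctacc
SNRPG: cttcatttcttCTTCCGGtccgaggtcgcc
SNRPD2: ggtccatgcccCTTCCGGatgtaggcaggg
SNRPA1: gcgcgccacgaCTTCCGGcaagaacgcccc
U2AF2: gccggcggcggCCGGAAGtagccgaagcca
SF3A1: aggggacggtcCCGGAAGtgcgccagtcgt
They lie at chr20:2470812-2470841, chr2:70293490-70293519, chr19:45692361-45692390, chr15:101295343-101295372 and chr22:30356925-30356954 on the minus strand for SNRPB, SNRPG, SNRPD2, SNRPA1 and SF3A1, and at chr19:55654994-55655023 on the plus strand for U2AF2. The motif starts between 30 and 113 bases before the annotated start of these genes. A match in the letters is a description and does not show that a factor binds there.

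LSm proteins 2 to 8 form the nuclear ring of U6, and LSm proteins 1 to 7 form a cytoplasmic ring that takes part in mRNA decay. The members common to both rings fell together: 5 of the 6 genes LSM2 to LSM7 were lower, with a median change of -0.93 over the 6. LSM7 measured 1145, 1072 and 1459 in DMSO and 452, 644 and 503 with MB1-47, a change of -1.20 ± 0.17 (SE; limma adjusted p = 0.00026). LSM6 measured 540, 412 and 598 against 261, 218 and 197, a change of -1.19. The MB1-47 means of both genes were under 0.5 times the DMSO mean, with no overlap. LSM4 measured 1540, 1780 and 1927 against 785, 1035 and 909, a change of -0.94. LSM3 measured 1569, 1297 and 1474 against 796, 705 and 789, a change of -0.92. LSM5 changed by -0.84. The sixth gene, LSM2, measured 455, 711 and 422 in DMSO and 319, 562 and 530 with MB1-47. Its groups overlapped, DMSO replicate 2 was far above the other DMSO libraries, and the change of -0.17 ± 0.26 (SE) did not pass (limma adjusted p = 0.63). Without that library it was 0.058, without MB1-47 replicate 1 it was 0.083, and neither passed.

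The 2 genes that set the identity of the ring moved apart. LSM8, whose product makes the ring nuclear and specific to U6, measured 4502, 3435 and 4094 in DMSO and 5322, 5341 and 5746 with MB1-47. All MB1-47 libraries were above all DMSO libraries, and the change was 0.46 ± 0.11 (SE; limma adjusted p = 0.0058). LSM1, whose product makes the ring cytoplasmic, measured 1420, 1271 and 1436 against 1043, 1058 and 920, a change of -0.45 ± 0.12 (SE; limma adjusted p = 0.011). That call was lost when each library's trend with transcript length was removed (-0.29, limma adjusted p = 0.0712). LSM10, part of the ring of the U7 snRNP that processes histone transcripts, was lower at -0.91, and its partner LSM11 was at 0.23 and did not pass, although it did without MB1-47 replicate 2 (0.33, limma adjusted p = 0.0417) and under equal library totals (0.36, limma adjusted p = 0.0154). LSM14A, a component of cytoplasmic P-bodies, measured 2932, 2858 and 2952 in DMSO and 4211, 3655 and 3265 with MB1-47. Its rise of 0.34 ± 0.10 (SE; limma adjusted p = 0.025) did not pass without MB1-47 replicate 1 (0.25, limma adjusted p = 0.102), without DMSO replicate 2 or 3 (0.0636 and 0.0628), or without the intensity trend (0.0828). LSM14B and LSM12 did not pass.

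**Figure D2:**
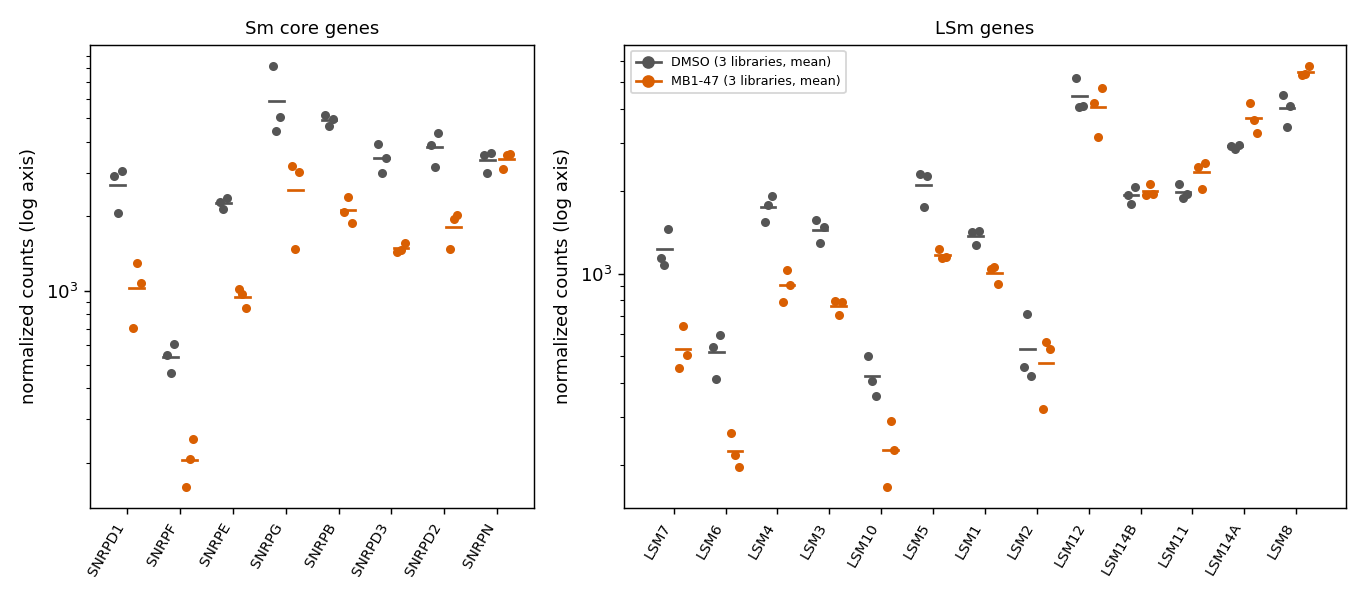
Normalized counts of each library (points, log axis) and group means (bars) for the Sm core genes and the LSm genes, with 3 DMSO libraries in grey and 3 MB1-47 libraries in orange, ordered by change. The groups are apart in 7 Sm genes and overlap in SNRPN, and LSM8 and LSM14A lie higher with MB1-47.

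Of the 25 genes of proteins specific to single snRNPs, 18 were lower, none higher, and 7 did not pass. The U1 snRNP recognises the 5' splice site. All 3 of its specific protein genes were lower: SNRPC by 1.08, SNRPA by 0.58 and SNRNP70, which encodes the U1-70K protein, by 0.57 on the log2 scale. SNRNP70 measured 2744, 3162 and 3143 in DMSO and 1859, 2275 and 1975 with MB1-47, with no overlap (limma adjusted p = 0.0018). SNRPA was less stable, since the call was lost without DMSO replicate 3 (-0.41, limma adjusted p = 0.0745) and without MB1-47 replicate 1 (-0.48, limma adjusted p = 0.0681).

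The U2 snRNP binds the branch point. SNRPA1, the gene of the U2 A' protein (chr15:101281510-101295282, minus strand), had the largest fall of all 90 genes. It measured 3210, 3149 and 3550 in DMSO and 1238, 1397 and 945 with MB1-47. Its MB1-47 mean of 1193 ± 229 (SD, n = 3) stood against 3303 ± 216 (SD, n = 3), a change of -1.48 ± 0.14 (SE; limma adjusted p = 1.5e-05). SNRPB2, the gene of U2 B'', was lower by 0.43, a call that was lost without MB1-47 replicate 1 (-0.38, limma adjusted p = 0.0509).

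SF3a and SF3b are the protein assemblies that hold U2 on the branch point. Their subunits diverged: of the 9 genes under the symbol rule, 6 were lower and 3 did not pass. PHF5A, an SF3b gene outside the rule that was named after its values were seen, was at -0.50 (limma adjusted p = 0.033). Its groups overlapped, and it kept the call in 10 of 17 alternatives. SF3B3 (chr16:70523788-70577670, plus strand) measured 17729, 19595 and 19856 in DMSO and 7102, 7490 and 8547 with MB1-47. The groups were far apart, with a change of -1.31 ± 0.09 (SE; limma adjusted p = 1.6e-06). SF3B1, the largest SF3b subunit and the one most often mutated in myeloid neoplasms and chronic lymphocytic leukaemia (chr2:197389784-197435091, minus strand), measured 17495, 21715 and 20498 in DMSO and 22797, 22527 and 20556 with MB1-47. Its groups overlapped and the change of 0.15 ± 0.09 (SE) did not pass (limma adjusted p = 0.24), although quantile normalization gave 0.38 with a limma adjusted p of 0.0171. SF3A3 was lower at -0.90, SF3B6 at -0.73, SF3B4 at -0.62 and SF3A2 at -0.59, while SF3A1 at -0.01 and SF3B2 at -0.19 did not pass. SF3B5, at -0.41 with a limma adjusted p of 0.048, passed in 5 of 17 alternatives, and leaving out any MB1-47 library or DMSO replicate 1 or 3 lost the call (limma adjusted p from 0.0735 to 0.182).

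U4/U6 and U5 join as the tri-snRNP, which brings the catalytic core. Of the 8 of its specific genes that the symbol rule took in, 6 were lower, with a median change of -0.48. Further genes of these particles, such as EFTUD2 and PPIH, have other names and are counted in a list below. PRPF31, a U4/U6 protein known from inherited retinal degeneration, measured 951, 1269 and 1221 in DMSO and 286, 494 and 712 with MB1-47. The 3 MB1-47 libraries were spread more than 2-fold among themselves but stayed below DMSO, with a change of -1.29 ± 0.28 (SE; limma adjusted p = 0.0035). PRPF8, the scaffold of the catalytic centre, measured 16714, 19180 and 15684 against 12280, 13680 and 12194. That change of -0.43 ± 0.09 (SE; limma adjusted p = 0.0033) did not pass under quantile normalization (-0.22, limma adjusted p = 0.117). SNRNP40 was lower at -0.67, PRPF4 at -0.65, PRPF3 at -0.53 and the helicase gene SNRNP200 at -0.38, the last again lost under quantile normalization (-0.12, limma adjusted p = 0.271). PRPF6 and SNRNP27 lay at -0.03 and 0.08 and did not pass.

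The minor spliceosome uses U11 and U12 in place of U1 and U2. SNRNP25, one of its proteins, measured 1704, 1463 and 1532 in DMSO and 704, 603 and 642 with MB1-47. It was lower in every library, at -1.27 ± 0.12 (SE; limma adjusted p = 1.9e-05). SNRNP48 and SNRNP35, proteins of the same particle, lay at 0.10 and 0.27 with overlapping groups and did not pass. The difference between these 3 genes was not tested.

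**Figure D3:**
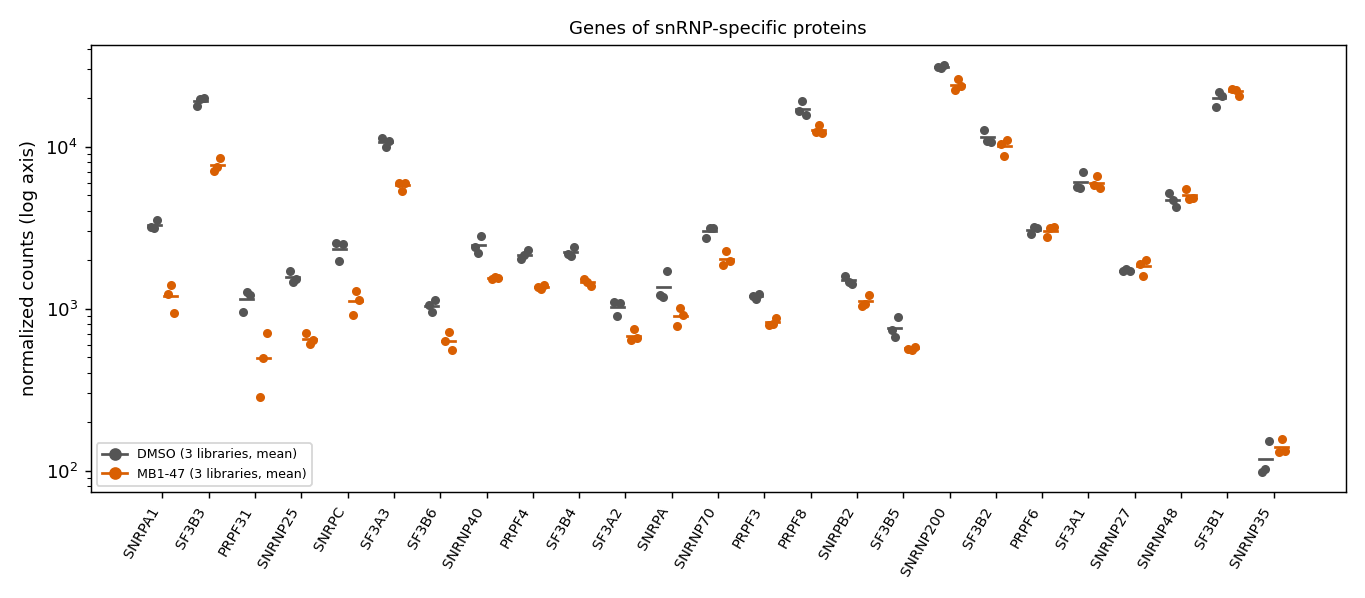
Normalized counts of each library (points, log axis) and group means (bars) for the 25 genes of snRNP-specific proteins, 3 DMSO libraries in grey and 3 MB1-47 libraries in orange, ordered by change. The groups are apart in the 18 genes on the left and overlap in the 7 on the right.

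The other 8 PRPF genes encode factors that join or leave during the cycle, and 4 were lower. PRPF19, the ubiquitin ligase that gives the PRPF19 complex its name (chr11:60890730-60906588, minus strand), measured 11078, 10330 and 11702 in DMSO and 4729, 5676 and 5553 with MB1-47. It was about 2-fold lower with no overlap, at -1.06 ± 0.09 (SE; limma adjusted p = 9.2e-06). PRPF38A, a protein of the assembled precatalytic complex, measured 5605, 4675 and 5622 against 3396, 3257 and 3732, a change of -0.61. The kinase gene PRPF4B measured 6419, 6356 and 6865 against 4882, 4821 and 5414, a change of -0.38. The groups did not overlap in either gene. PRPF38B, PRPF18, PRPF39 and PRPF40B did not pass, at -0.17, -0.14, 0.08 and 0.45.

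Recognition of the 3' end of an intron uses SF1 at the branch point and the U2AF pair, U2AF2 on the polypyrimidine tract and U2AF1 on the AG. U2AF2 (chr19:55654146-55674715, plus strand) measured 4129, 4678 and 4732 in DMSO and 1873, 2193 and 1896 with MB1-47. All MB1-47 libraries were below 0.5 times the DMSO mean, a change of -1.18 ± 0.10 (SE; limma adjusted p = 7.8e-06). SF1 measured 20481, 20058 and 20663 against 16088, 15679 and 16006. The groups were tight and apart, with a change of -0.36 ± 0.07 (SE; limma adjusted p = 0.0016) that did not pass under quantile normalization (-0.12, limma adjusted p = 0.139).

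U2AF1 has a near-identical copy on GRCh38, U2AF1L5, so the reads of the pair were split by the authors' tool. U2AF1 alone measured 1065, 941 and 955 in DMSO and 735, 896 and 765 with MB1-47, a change of -0.31 ± 0.13 (SE) that did not pass (limma adjusted p = 0.091). U2AF1L5 measured 3010, 3342 and 3359 against 2018, 1888 and 2010, a change of -0.71, and held 76.6% of the pair's counts in DMSO and 71.2% with MB1-47. Summed, the pair measured 4224 ± 130 in DMSO and 2771 ± 16.3 with MB1-47 (SD, n = 3 each), a change of -0.61 ± 0.08 (SE; limma adjusted p = 0.000187). The sum was added after the data were seen, and it does not depend on how reads were split between the copies.

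SR proteins carry RNA recognition motifs and a tail rich in serine and arginine. Of 11 genes 8 were lower, and their changes ran from -1.34 to -0.25. SRSF1, the founding member and a known proto-oncogene (chr17:58003360-58007346, minus strand), measured 32249, 29365 and 30949 in DMSO and 12919, 11183 and 12518 with MB1-47. The fall was even across libraries, at -1.34 ± 0.08 (SE; limma adjusted p = 8.6e-07), to means of 12207 ± 909 from 30854 ± 1445 (SD, n = 3 each). SRSF2, which is recurrently mutated in myeloid neoplasms, measured 21527, 18126 and 19444 against 10254, 8716 and 9410, a change of -1.06. SRSF7 measured 6634, 7330 and 8199 against 3585, 4564 and 4116, a change of -0.86. Groups were apart in both genes, with limma adjusted p-values of 7.5e-06 and 0.00013.

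A second set of SR genes moved less. SRSF10, a splicing repressor when dephosphorylated, measured 15177, 14191 and 14806 in DMSO and 11146, 10346 and 11117 with MB1-47, a change of -0.44. SRSF3 measured 40518, 35519 and 38827 against 29269, 27234 and 30325, a change of -0.40 that did not pass under quantile normalization (-0.14, limma adjusted p = 0.0699). Both were lower in every MB1-47 library. SRSF9 and SRSF4 changed by -0.36 and -0.34, and neither passed under equal library totals (-0.23 and -0.22, limma adjusted p = 0.0586 and 0.0736). SRSF9 also lost the call with the length trend removed (-0.20, limma adjusted p = 0.0992). SRSF6 measured 20621, 18686 and 21589 against 16749, 17586 and 16620. Its change of -0.25 ± 0.08 (SE; limma adjusted p = 0.024) was close to the threshold, and leaving out DMSO replicate 1 or 3 or MB1-47 replicate 1 or 3 gave adjusted p-values from 0.0666 to 0.113. Under quantile normalization it was -0.01 (limma adjusted p = 0.939).

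SRSF5 and SRSF8 did not follow the others. SRSF5 (chr14:69726900-69772005, plus strand) measured 6871, 6400 and 6331 in DMSO and 7418, 7561 and 7575 with MB1-47. Every MB1-47 library was above every DMSO library, and the change of 0.20 ± 0.08 (SE) did not pass (limma adjusted p = 0.057). It passed in 5 alternatives, with the highest change, 0.33, under equal library totals (limma adjusted p = 0.00343). SRSF8 lay at 0.23 with no overlap and did not pass (limma adjusted p = 0.085), except under equal library totals (0.36, limma adjusted p = 0.00776). SRSF11, at -0.28, did not pass (limma adjusted p = 0.061), and did so without MB1-47 replicate 1 (-0.38, limma adjusted p = 0.0175). The deposited values are 1 per gene. GENCODE 29 lists 3 transcripts of SRSF1, 2 of SRSF2, 2 of SRSF3 and 6 of SRSF7 that end in nonsense-mediated decay, and their share cannot be read from these values.

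Of the 21 hnRNP genes, 14 were lower, 1 was higher and 6 did not pass. HNRNPAB, which encodes an hnRNP that also binds DNA (chr5:178204507-178211163, plus strand), fell furthest. It measured 7058, 6689 and 7131 in DMSO and 2348, 2656 and 2743 with MB1-47, a change of -1.43 ± 0.09 (SE; limma adjusted p = 1.0e-06). Its paralog HNRNPD, also called AUF1 and known to bind AU-rich elements in labile mRNAs, measured 24060, 24947 and 27346 against 12109, 11273 and 11353. The groups were far apart, with a change of -1.13 ± 0.08 (SE; limma adjusted p = 1.6e-06). HNRNPM, a splicing regulator found in the nuclear matrix, measured 12869, 13568 and 13191 against 7122, 6450 and 6574, a change of -0.98.

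The hnRNPs that coat most nascent transcripts did not move alike. HNRNPA2B1 (chr7:26173057-26201529, minus strand) measured 68666, 56203 and 59888 in DMSO and 33308, 28292 and 34483 with MB1-47, a change of -0.94 ± 0.10 (SE; limma adjusted p = 3.0e-05). HNRNPU, the scaffold attachment factor (chr1:244840638-244864560, minus strand), measured 51994, 47532 and 49090 against 26846, 25206 and 25626, a change of -0.94 ± 0.07 (SE; limma adjusted p = 3.3e-06). The groups did not overlap in either gene. HNRNPK, a poly(C)-binding protein, measured 37601, 36664 and 40434 against 22268, 24809 and 23467, a change of -0.70. HNRNPC, which binds uridine tracts and packages pre-mRNA, measured 34996, 30344 and 33468 against 20761, 20191 and 22058, a change of -0.65. Under quantile normalization these 2 changes were -0.45 and -0.38, and both still passed. HNRNPA1 (chr12:54280193-54287088, plus strand), in contrast, measured 72117, 67532 and 75436 in DMSO and 64422, 71084 and 63744 with MB1-47. The groups overlapped and the change of -0.11 ± 0.08 (SE) did not pass (limma adjusted p = 0.29). It turned to 0.018 under equal library totals and to 0.58 under quantile normalization, where it passed (limma adjusted p = 5.76e-05), so no direction is given for this gene.

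HNRNPLL was the only hnRNP gene past the threshold in the other direction. Its product drives exon skipping in CD45 (PTPRC) when lymphocytes are activated. HNRNPLL (chr2:38561978-38603586, minus strand), whose library values are given because it rose, measured 3268, 2650 and 2943 in DMSO and 5138, 4695 and 4907 with MB1-47. All 3 MB1-47 libraries were above all DMSO libraries, a change of 0.74 ± 0.10 (SE; limma adjusted p = 0.00016). Its paralog HNRNPL was lower, at -0.44 ± 0.08 (SE; limma adjusted p = 0.00098), and the difference between the paralogs was not tested. The read-through HNRNPUL2-BSCL2 measured 4617, 4135 and 4479 against 5521, 5556 and 5331, a change of 0.31 (limma adjusted p = 0.012). It shares sequence with HNRNPUL2, and the sum of the pair was 13566 ± 416 in DMSO and 13720 ± 678 with MB1-47 (SD, n = 3 each), a change of 0.02 that did not pass (limma adjusted p = 0.89).

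Of the other hnRNP genes, HNRNPR was at -0.91, HNRNPF at -0.76, HNRNPA3 at -0.70, HNRNPH3 at -0.68, HNRNPDL at -0.48 and HNRNPH1 at -0.28, and these all passed. HNRNPH1 lost the call in 5 alternatives, among them the fits without DMSO replicate 3 (-0.25, limma adjusted p = 0.0742) and without MB1-47 replicate 3 (-0.22, limma adjusted p = 0.0802). A pseudogene of HNRNPA3, HNRNPA3P6, and 5 others held 14.2% of the summed counts of gene and copies in DMSO and 11.8% with MB1-47. HNRNPA0, HNRNPH2, HNRNPUL1 and HNRNPUL2 lay between -0.17 and -0.14 and did not pass, except that HNRNPA0 was lower with the length trend removed (-0.31, limma adjusted p = 0.0109). HNRNPA1L2, a retrocopy of HNRNPA1, was at 0.45 and did not pass (limma adjusted p = 0.057). It passed in 5 alternatives, among them the fit without DMSO replicate 1 (0.56, limma adjusted p = 0.0325) and equal library totals (0.57, limma adjusted p = 0.0158).

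**Figure D4:**
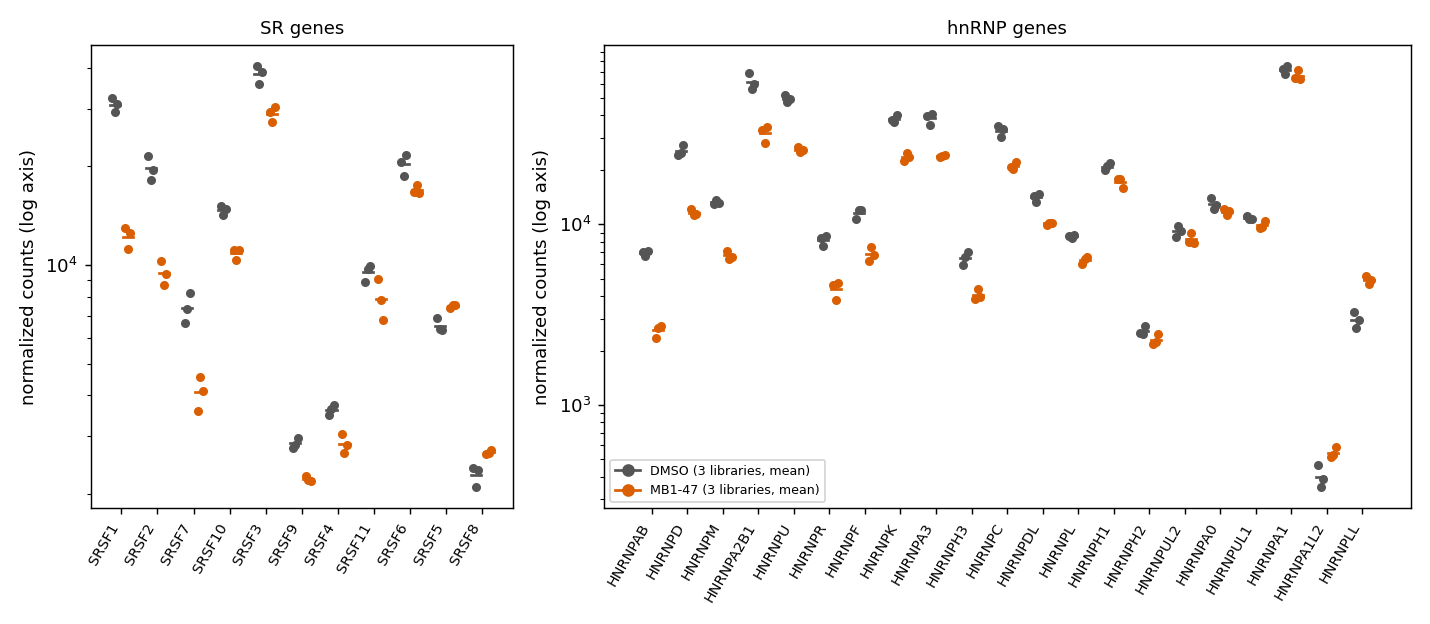
Normalized counts of each library (points, log axis) and group means (bars) for the 11 SR genes and the 21 hnRNP genes, 3 DMSO libraries in grey and 3 MB1-47 libraries in orange, ordered by change. SRSF1 and HNRNPAB lie furthest apart at the left, HNRNPA1 overlaps, and HNRNPLL is higher with MB1-47.

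The same promoter windows were searched for the E-box CACGTG, which reads the same on both strands and is bound by MYC, MAX and USF proteins. It lay in 7 of 20 hnRNP windows (35.0%) and 2 of 22 snRNP-specific windows (9.1%), and in none of 7 Sm, 10 LSm or 10 SR windows, beside 11.5% of the members, 10.1% of 9774 tested genes and 7.4% of all windows. Among members it lay in 5 of 52 that were lower (9.6%) and 4 of 26 that were not (15.4%). Over the tested genes the order was the other way. The E-box lay in 13.6% of 2081 lower genes, 9.9% of 1896 higher and 8.8% of 5797 that did not pass. Whether the E-box has a part in the changes was not tested. The stretches below show the first match in 5 hnRNP genes that were lower and in HNRNPH2 and SF3B1, which did not pass, with the E-box in capitals.
HNRNPD: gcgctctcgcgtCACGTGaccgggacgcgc
HNRNPM: gttgcgtcgggtCACGTGggcgcgcaggcg
HNRNPA3: cggaaaacgcgtCACGTGacgactggcccc
HNRNPH3: tgccggtcgaacCACGTGgggccctttccg
HNRNPDL: agaggcccggggCACGTGcagaaaggagcc
HNRNPH2: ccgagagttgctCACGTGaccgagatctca
SF3B1: tggcagttctgtCACGTGtcacccgacgga
On the minus strand, HNRNPD lies at chr4:82374001-82374030, HNRNPDL at chr4:82430364-82430393 and SF3B1 at chr2:197435119-197435148. On the plus strand, HNRNPM lies at chr19:8444921-8444950, HNRNPA3 at chr2:177212711-177212740, HNRNPH3 at chr10:68331631-68331660 and HNRNPH2, with 2 matches in its window, at chrX:101408168-101408197. SRSF1, SNRPB and SNRPA1, each more than 2-fold lower, had no E-box in their windows, which says only that these letters are not there.

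A further 4 motifs were searched in the same windows on both strands. The CCAAT box (CCAAT) lay in 13 of 20 hnRNP windows (65.0%) and 2 of 10 SR windows (20.0%), beside 37.0% of tested genes. A TATA box (TATAAA) lay in 7.7% of members and 5.3% of tested genes, the element TCTCGCGA in 3.8% and 2.6% and AAGATGGC in 6.4% and 5.5%. None of these 4 reads the same on both strands.

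Transcript length differed between the classes. The median length of the longest annotated mRNA was 1271.5 bases for Sm genes, 3117 for SR genes and 3664 for hnRNP genes, beside 3250 for all genes tested. Across 89 members the log2 change correlated with the log2 of that length at a Pearson r of 0.27 and a Spearman rho of 0.29, and across 13392 tested genes at 0.12 and 0.15. These correlations are across genes of the same 6 libraries, which are not independent replicates, and carry no p. With each library's length trend removed, the Sm median was -1.08 and the hnRNP median -0.63.

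Other genes of the pathway were taken from lists that were not picked for how single genes moved. Earlier results of these data were known when the lists were made, so they are not independent of the data. Of 30 further snRNP and tri-snRNP protein genes, 17 were lower (56.7%) and 2 higher, beside 19.8% and 18.3% of all genes tested. The median change was -0.40. EFTUD2, the U5 GTPase, fell from 13618 ± 383 to 6666 ± 257 (SD, n = 3 each; -1.03, limma adjusted p = 2.2e-06), and PPIH, a cyclophilin of U4/U6, changed by -0.95. RNPC3, a U11/U12 protein that holds the minor particle together, rose from 585 ± 42.6 to 1106 ± 87.3 (0.92, limma adjusted p = 0.00027). PDCD7, another U11/U12 protein, was the second higher gene at 0.31, a call lost without DMSO replicate 2 (limma adjusted p = 0.055) or MB1-47 replicate 1 (limma adjusted p = 0.0734). The minor-spliceosome genes ZCRB1 (-0.05), ZMAT5 (0.05) and ZRSR2 (-0.26) on the same list did not pass.

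The PRPF19 complex and the factors of the catalytic steps were the list least changed, with 7 of 30 lower, 2 higher and a median of -0.18. Its lower share of 23.3% stood near the 19.8% of all genes. PPIL1, a peptidyl-prolyl isomerase of the active spliceosome, changed by -1.16 and DHX15, the helicase that takes the spent complex apart, by -1.06, from 19636 ± 503 to 9444 ± 831 (SD, n = 3 each). SYF2 rose by 0.75. RBMX2, at 0.32 with a limma adjusted p of 0.047, lost the call with any 1 library left out (limma adjusted p from 0.0742 to 0.131).

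Building an snRNP needs the SMN and PRMT5 complexes, which methylate Sm proteins and load them on the RNA, and further factors that cap, export, import or mature the small RNAs. Of 25 genes listed for snRNP assembly in this wide sense, 15 were lower (60%) and 0 higher, beside 19.8% and 18.3% of all genes tested. The median was -0.56. COPRS, a cofactor of PRMT5, changed by -1.51, from 663 ± 68.3 to 232 ± 32.9 (limma adjusted p = 7.3e-05). NAA38, an acetyltransferase subunit also named LSMD1, was on the list without one of the roles above and changed by -1.44. WDR77, the obligate partner of PRMT5, fell from 9322 ± 599 to 3802 ± 95.05 (-1.29, limma adjusted p = 1.1e-06). PRMT5 itself was at -0.78 and GEMIN4, of the SMN complex, at -1.05. These were named after their values were seen. SMN1 and SMN2 are nearly identical, so their split is uncertain, and neither passed.

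Of 22 genes of SR kinases, SR-related and exon junction proteins, 13 were lower (59.1%) and 6 higher, beside 19.8% and 18.3% of all genes tested. The median was -0.38. EIF4A3 and MAGOH, core parts of the exon junction complex, changed by -1.01 and -0.91, and TRA2B, an SR-like regulator, by -0.94, from 18036 ± 1312 to 9414 ± 358 (SD, n = 3 each). The kinases that phosphorylate SR proteins diverged: SRPK1 was lower at -0.59 and CLK2 at -0.55, while SRPK2 was higher at 0.60, CLK1 at 0.58 and CLK4 at 0.80. The kinases were named after their values were seen, and the differences between them were not tested. The other higher genes were PNISR, CASC3 and UPF3B. CASC3 is also a core part of the exon junction complex and was at 0.55, while RBM8A, another core part, was lower at -0.73.

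Among 39 other RNA-binding splicing regulators, 20 were lower (51.3%) and 6 higher, beside 19.8% and 18.3% of all genes tested. The median was -0.27. SYNCRIP, also called hnRNP Q, fell from 30398 ± 2842 to 14600 ± 1351 (SD, n = 3 each; -1.06, limma adjusted p = 9.9e-06). MBNL2, of the muscleblind family, rose from 623 ± 115 to 1143 ± 154 (0.88, limma adjusted p = 0.0017). The other higher genes were TIA1, CELF2, RBM5, PTBP3 and TIAL1. TIAL1, at 0.23 with a limma adjusted p of 0.043, lost the call with any 1 library left out (limma adjusted p from 0.0503 to 0.12). PTBP3, at 0.39, lost it without DMSO replicate 2 or 3 or MB1-47 replicate 1 or 3 (limma adjusted p from 0.0534 to 0.0791).

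**Figure D5:**
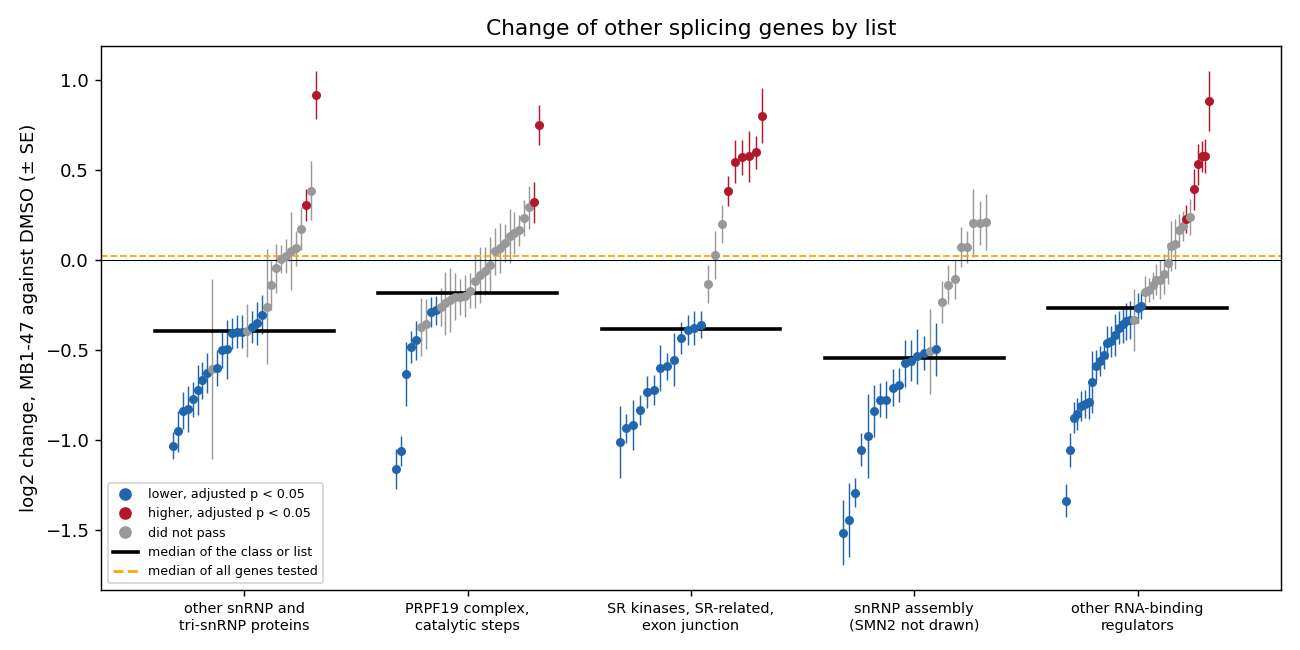
Each point is the log2 change of 1 gene, MB1-47 against DMSO (3 libraries each), with its standard error, in the 5 lists of other splicing genes; black bars are list medians and the dashed line is the median of all genes tested. The medians run from -0.56 for snRNP assembly to -0.18 for the PRPF19 complex and catalytic steps; SMN2, far below the axis with a wide error, is not drawn.

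The direction of these changes rests on the scaling between libraries. When totals were made equal across libraries, the median over the genes tested shifted from 0.02 to 0.147, and 2063 genes were lower and 3335 higher in place of 2667 and 2458. Of the members, 53 were then lower and 8 higher, with a median of -0.38. Relative to the median of all genes, the members' median was -0.523 under equal totals and -0.524 with the deposited scaling. Equal totals shift all log2 changes by nearly the same amount, so this comparison could hardly have come out otherwise. Under quantile normalization the difference was -0.449, and with the length trend removed it was -0.507. The call was the same in every alternative that gave a gene its own value for 67 of the 90 members: 47 of the 60 lower, 3 of the 4 higher and 17 of the 26 that did not pass. These were 17 alternatives, except 16 for HNRNPUL2-BSCL2 and HNRNPA1L2, which were merged with their parent genes when copies were summed.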

How the data were processed

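Strand-specific libraries of total RNA were analysed from 6 samples, 3 per group. The authors deposited normalized counts in 1 table, treated here as a non-negative signal. The submitters' processing notes name kallisto 0.44.0, DESeq and GRCh38.p13. kallisto shares ambiguous reads between transcripts. Which annotation was used, how transcripts became genes and any filter were not given in the sources used here. Genes with a mean of at least 10 (13465) were tested with limma 3.58.1 (R 4.3.3) on log2(value + 1), a scale that shrinks the change of low genes, with an intensity trend, Benjamini-Hochberg adjustment and a threshold of 0.05. Medians over classes and lists carry no test. Members, classes and lists were chosen with earlier results of these data known.

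Library values are given for up to 4 members of a class with the largest change past the threshold and a mean of at least 50, and for 22 members in any case. From each other list, up to 3 genes are named by the same measure. Some genes that the rule names are not reported here. Pseudogenes, positions and lengths came from GENCODE 29 on GRCh38, with a length for 99.5% of tested genes. The 17 alternatives used pseudocounts of 0.5 and 5, filters at 0 and 50, TMM factors (trimmed mean of M), quantile normalization, equal library totals, removal of each library's length trend (loess, span 0.5), limma with no trend, the replicate number as block, each library left out, and copies summed with their parent gene, which was added after the data were seen. The steps were tested on simulated data. Figures were drawn with matplotlib 3.10.9 (Python 3.11.15).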

Additional observations from a re-analysis of the deposited data

How the results depend on the processing

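The number of lower and higher members together was 64, and 59 to 64 with each library left out in turn. Under quantile normalization 1 of the 3 branch point and 3' splice site genes passed in place of 2. Class medians kept their sign in all 17 alternatives and moved by more than the spread between replicates in these cases. Under equal library totals they were -0.32 for LSm, -0.44 for snRNP-specific, -0.15 for other PRPF, -0.23 for branch point and 3' splice site, -0.23 for SR and -0.52 for hnRNP genes. Under quantile normalization they were -0.23 for other PRPF, -0.28 for branch point and 3' splice site, -0.27 for SR and -0.38 for hnRNP genes. With the length trend removed they were -0.29 for LSm, -0.32 for other PRPF and -0.31 for SR genes. With copies summed the branch point and 3' splice site median was -0.61. With each library left out in turn, the medians ran from -0.51 to -0.39 for LSm, -0.62 to -0.51 for snRNP-specific, -0.32 to -0.26 for other PRPF and -0.67 to -0.60 for hnRNP genes.

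Direction turned in at least 1 alternative for 9 members, of which 0 had passed: HNRNPA1, LSM2, SNRPN, SF3A1 (up to 0.122), PRPF6 (up to 0.103), LSM12 (0.024), HNRNPA0 (0.04), HNRNPUL2 (0.0156) and HNRNPUL1 (0.000464). HNRNPA1 was at 0.58 under quantile normalization and 0.018 under equal library totals. LSM2 was at 0.0006 with the length trend removed, 0.058 without DMSO replicate 2 and 0.083 without MB1-47 replicate 1. SNRPN lay between -0.065 and 0.081 with each library left out, and below 0 without DMSO replicate 2, MB1-47 replicate 2 or MB1-47 replicate 3. The cause was not tested in any of these.

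Same-numbered libraries did not deviate together (correlations of 0.022, 0.057 and 0.007), so no pairing by number was visible. Whether the samples were paired when the cells were plated cannot be read from this. With the replicate block, 59 members were lower and 4 higher, and 2715 and 2531 of all genes.

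Where a library is left out, a group of 2 is compared with a group of 3. Depth is unknown, so no limit by counting error can be given.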
